A study of Mus musculus with 20 samples.

Results

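Potassium channel genes other than the Kcnd channels and their Kcnip partners were followed in 2 brain regions, cerebellum and forebrain, of wild-type mice and of mice labelled knock-in. They comprised all probe sets annotated to a single gene whose symbol begins with Kcn, leaving out symbols beginning with Kcnd or Kcnip. The rule used no measured value and gave 75 probe sets of 55 genes among the 22690 probe sets of the array. Total RNA was measured on 20 single-channel arrays. Each genotype and region had 3 arrays at 4 weeks and 2 arrays at a later age, which is 11 weeks in the sample descriptions, 12 weeks in the titles and called 11 weeks here. The labels name no knocked-in allele, strain or sex and do not say that the arrays hold different mice, so all errors and p-values describe the spread between these arrays, which may be technical.

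Region is not labelled uniformly. Among the 10 forebrain arrays, only the wild-type ones of 4 weeks have a source field and title opening that do not name cerebellum; on the other 7 both do. Of these 7, knock-in forebrain 4 weeks replicate 3 is also called cerebellum in its description. The code in each title was used for the grouping. In these 10 arrays the cerebellar markers Pcp2, Ppp1r17, Gabra6, Cbln3 and Zic2 were never above the detection limit used here, and Camk2a, Neurod6 and Tbr1, which mark forebrain excitatory neurons, were never above it in the arrays grouped as cerebellum. Results that used the array with conflicting description are given with and without it.

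Potassium channels let potassium leave or enter the cell down its gradient, and in neurons they set the resting potential, shape the spike and limit firing. Voltage-gated Kv channels open on depolarization, two-pore (Kcnk) channels carry the leak current at rest, inward rectifiers (Kcnj) hold the resting potential or answer G-protein-coupled receptors, and calcium-activated channels link firing to calcium entry. Auxiliary subunits (Kcnab, Kcne, Kcnmb) bind the pore-forming proteins and change their gating or traffic. Purkinje cells and fast-spiking interneurons are known to depend on Kv channels for rapid firing.

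Of the 75 probe sets, 49 of 39 genes passed the filter on low values, which asked for 2 or more arrays with an intensity over the 40th percentile of that array (median limit 681). They were 11 of 12 probe sets of voltage-gated Kv genes, 5 of 6 of the Kcnq and Kcnh genes, 4 of 9 of calcium- or sodium-activated channels, 10 of 20 of inward rectifiers, 8 of 12 of two-pore channels and 11 of 16 of auxiliary subunits. A total of 23 kept probe sets lay above the limit on all 20 arrays. Of the 26 that were not kept, 23 lay above the limit on 0 arrays and 3, of Kcnab3, Kcne4 and Kcnn1, on 1 array. For 16 genes no probe set was kept, namely Kcna5, Kcne1, Kcne3, Kcne4, Kcnj1, Kcnj2, Kcnj5, Kcnj14, Kcnj15, Kcnk5, Kcnk7, Kcnk13, Kcnn3, Kcnn4, Kcnq1 and Kcnu1. The missing genes include the atrial and renal channels Kcnj5 and Kcnj1 and the small-conductance channel Kcnn3. A kept probe set need not measure its gene well, since filtering used brightness alone.

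Median intensity per array was 979 to 1180. The ratio of 3' to 5' GAPDH signal, a sign of RNA quality, was 0.804 to 0.890 in knock-in and 0.744 to 0.828 in wild-type forebrain, and 0.828 to 0.903 in knock-in and 0.823 to 0.864 in wild-type cerebellum. The same ratio for beta-actin was 0.934 to 1.22 in knock-in and 1.09 to 1.23 in wild-type forebrain. In cerebellum it was 1.00 to 1.16 in knock-in and 1.05 to 1.11 in wild type. Marker sums were apart between genotypes for interneuron genes in forebrain and for the genes of the Purkinje cell list in both regions. All other listed sums overlapped. In forebrain, 6 interneuron genes summed to 53600 to 67200 on knock-in and 69000 to 89300 on wild-type arrays, with no overlap, and Gad1 (-0.62) and Vip (-0.72) were called lower. In the same region 8 genes of the Purkinje cell list summed to 42200 to 52400 against 52500 to 66800. Of these, the cerebellar markers Pcp2 and Ppp1r17 were never above the limit there, so this sum is no measure of Purkinje cells. Pyramidal neuron markers (5 genes) summed to 52900 to 67900 against 59300 to 88100, and astrocyte markers (8 genes) to 86700 to 112000 against 98700 to 117000, both with overlap. In cerebellum, 8 Purkinje cell genes summed to 267000 to 320000 on knock-in and 332000 to 341000 on wild-type arrays, with no overlap. The part of these shifts in the results below was not tested. The samples are bulk tissue, in which fewer cells of a type and less RNA per cell cannot be told apart.

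The wild-type arrays show where each channel was expressed. Of the 49 kept probe sets, 15 (11 genes) were higher and 21 (17 genes) lower in cerebellum than in forebrain over both ages; 26.6% of all 15627 probe sets tested were higher and 21.3% lower. Each call is at a Benjamini-Hochberg adjusted p under 0.05 in limma's linear model of all 20 arrays. The median difference of the kept members was -0.28 log2 units, against 0.04 for all probe sets. Called probe sets that lay below the limit throughout a region passed the filter only through the other region. The Kcnq and Kcnh genes (4 lower of 5) and calcium- or sodium-activated channels (3 lower of 4 probe sets) had no call toward cerebellum. The two-pore channels were split, with 6 probe sets of Kcnk1, Kcnk3 and Kcnk10 higher and those of Kcnk2 and Kcnk4 lower. The plot of regional differences shows these shifts family by family.

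**Figure D1:**
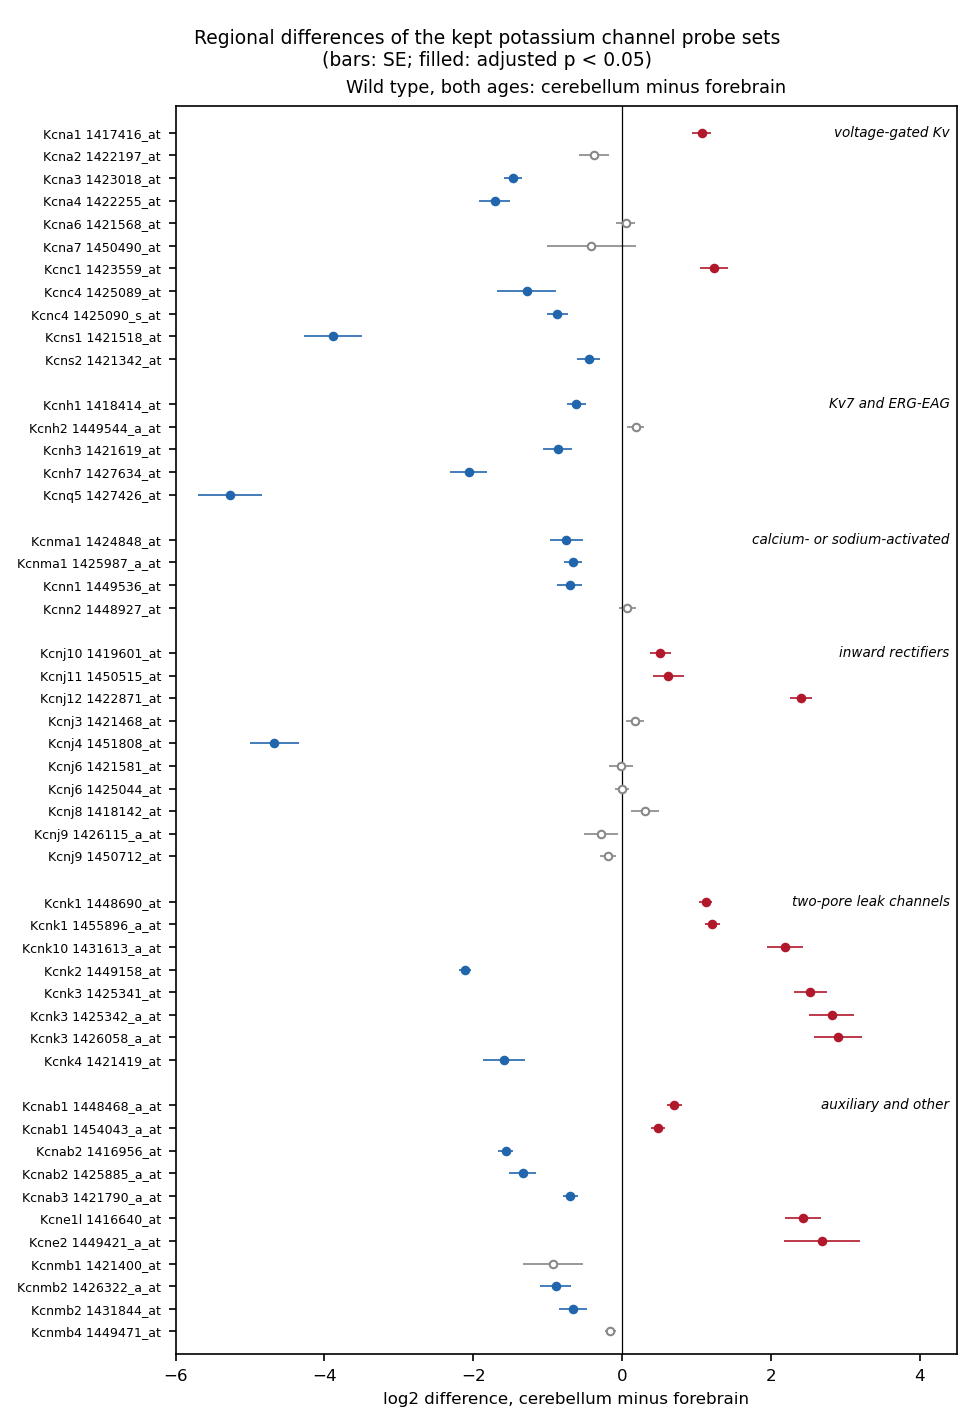
Difference between wild-type cerebellum and forebrain (log2 units, horizontal axis) for the 49 kept potassium channel probe sets, grouped by family; points are fitted differences over both ages, bars are standard errors and filled points have an adjusted p under 0.05. Kcnk2 lies at -2.11 and Kcnj12 and the brightest Kcnk3 probe set at 2.40 and 2.53; where a probe set was below the limit throughout 1 region (11 of the called ones, among them Kcnq5, Kcnj4, Kcns1 and Kcne2) the point has no exact size or rank.

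Among the channels higher in cerebellum, Kcnk3, an acid-sensitive two-pore leak channel, read 5029, 5508 and 5592 in wild-type cerebellum at 4 weeks and 5319 and 4631 at 11 weeks. In wild-type forebrain it read 772, 816 and 849 at 4 weeks and 1029 and 884 at 11 weeks. Every cerebellar array lay above every forebrain array, and the difference was 2.53 ± 0.22 log2 units (SE; adjusted p = 9.94e-08). Its other probe sets were below the limit on every forebrain array and at least 3.16-fold and 1.64-fold higher in cerebellum. Kcnj12, a strong inward rectifier, read 3222, 2880 and 4220 at 4 weeks and 3940 and 3251 at 11 weeks in wild-type cerebellum. In forebrain it read 646, 537 and 706 at 4 weeks and 547 and 810 at 11 weeks, and the regions did not overlap (difference 2.40 ± 0.15, adjusted p = 1.64e-09). Kcnk10, a mechanosensitive leak channel, was at least 2.05-fold higher in cerebellum, and the small auxiliary subunits Kcne1l and Kcne2 at least 1.61-fold and 1.31-fold. These bounds set the dimmer region, which lay below the limit on every array, to that limit. Kcne2 is known from the epithelium of the choroid plexus, and the 4 measured choroid plexus markers were all higher in cerebellum too, with sums of 89100 to 97400 against 1850 to 26600 on wild-type arrays; their part in the Kcne2 result was not tested. Kcnc1, the fast delayed rectifier of rapidly firing neurons, was 1.23 ± 0.18 log2 units higher, and Kcna1, a low-threshold axonal channel, 1.07 ± 0.12. Kcnk1, a weakly conducting two-pore channel, was higher by 1.12 and 1.21 at its probe sets, and Kcnab1, a Kv beta subunit, by 0.70 and 0.49.

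Channels lower in cerebellum formed the longer list. Kcnq5, which carries part of the M-current, read 1570, 1721 and 1908 in wild-type forebrain at 4 weeks and 1377 and 1428 at 11 weeks. It was below the limit on every cerebellar array and at least 2.43-fold lower there. Kcnj4, an inward rectifier of forebrain neurons, read 3969, 5587 and 4549 in forebrain at 4 weeks, 4547 and 4055 at 11 weeks, and no more than 340 in cerebellum, where it was at least 6.97-fold lower. Kcnh7 (at least 2.03-fold lower in cerebellum), of the ERG family, Kcna3 (at least 1.64-fold), a Kv channel, Kcnk4 (at least 1.40-fold), a mechanosensitive leak channel, and the silent Kv subunit Kcns1 (at least 1.27-fold) were likewise below the limit on all wild-type cerebellar arrays. Kcnk2, a mechanosensitive leak channel related to Kcnk10, was measured well on both sides. It read 7816, 8194 and 7869 in wild-type forebrain at 4 weeks and 8314 and 7538 at 11 weeks. In cerebellum it read 1712, 1896 and 1615 at 4 weeks and 1804 and 2037 at 11 weeks, far below every forebrain array, with a difference of -2.11 ± 0.08 (adjusted p = 4.23e-12). Kcnab2, a beta subunit, was lower at both probe sets (-1.57 and -1.34), as was Kcna4, an inactivating Kv channel (-1.71 ± 0.21). Kcnj6, a G-protein-gated channel, read 1211, 926 and 893 in cerebellum and 794, 831 and 826 in forebrain at 4 weeks; over both ages the regional difference was -0.00 ± 0.09 (adjusted p = 0.986).

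Promoter sequences were matched for 44 of the 55 genes, in 57 windows of the 250 bases before a transcription start (RefSeq, GRCm38.p6, gene strand). The 3 windows printed belong to Kcnc1 and Kcnk1, which were called lower in knock-in forebrain, and to Kcnj6. Kcnj6 was called higher in knock-in mice averaged over regions and ages. The limits of these calls are given below. Capitals mark the GC box GGGCGG, a site of Sp-family factors, or its reverse complement, and in Kcnc1 also TGACG, the core of the cyclic AMP response element.
Kcnc1, chr7:46396218-46396467, plus strand: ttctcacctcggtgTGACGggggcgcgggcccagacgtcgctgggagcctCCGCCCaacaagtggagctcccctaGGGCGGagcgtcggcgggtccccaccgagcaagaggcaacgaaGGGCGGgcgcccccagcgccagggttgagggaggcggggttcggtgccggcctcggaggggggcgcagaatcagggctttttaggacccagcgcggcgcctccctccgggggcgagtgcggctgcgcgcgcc
Kcnk1, chr8:125994852-125995101, plus strand: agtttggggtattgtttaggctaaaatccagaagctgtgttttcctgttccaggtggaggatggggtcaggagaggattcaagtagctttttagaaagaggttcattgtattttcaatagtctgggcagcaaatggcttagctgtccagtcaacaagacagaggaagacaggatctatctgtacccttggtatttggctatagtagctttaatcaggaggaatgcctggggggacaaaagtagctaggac
Kcnj6, chr16:94856691-94856940, minus strand: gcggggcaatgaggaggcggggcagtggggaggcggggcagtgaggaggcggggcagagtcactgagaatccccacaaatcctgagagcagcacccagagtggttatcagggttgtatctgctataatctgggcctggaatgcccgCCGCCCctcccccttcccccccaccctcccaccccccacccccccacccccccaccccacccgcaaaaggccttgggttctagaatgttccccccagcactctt
The Kcnc1 window held 3 GC boxes and 1 TGACG, the printed Kcnj6 window 1 GC box and no TGACG, and the Kcnk1 window neither. A second Kcnj6 window, chr16:94997697-94997946, held neither. Over both strands, GGGCGG stood in 27 of the 57 windows (47.4%), against 32.7% of all 32851 windows of that length. TGACG stood in 17.5% and 17.8%, and TATAAA, the TATA box, in 1.75% (the window of Kcnj9) and 12.4%. The full element TGACGTCA, which holds TGACG, and TGAATGAA and TCAATGAA, octamers known as sites of the repressor Capicua, were in 0 of the 57, against 1.55%, 1.08% and 0.642% of all windows. Median GC content was 58.8% in member windows and 52.4% in all. A match is a run of letters and not a shown binding site.

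In forebrain, potassium channel genes called between genotypes were mostly lower in knock-in mice. Over both ages, 9 probe sets of 8 genes fell and 1, of Kcne1l, rose. Across all 15627 probe sets, 5.13% were lower and 8.36% higher in the same comparison. The falls were in 4 two-pore channels (Kcnk1, Kcnk2, Kcnk3, Kcnk10), the Kv channels Kcna1 and Kcnc1 and the beta subunits Kcnab1 and Kcnab3. The calls of Kcnk10, Kcne1l and a Kcnk3 probe set compare readings below the limit in both genotypes. These probe sets passed the filter only through cerebellum. The median difference of the 49 kept members was -0.15 log2 units, against 0.04 for all probe sets. Under quantile normalization 8 members were lower and 1 higher, and under cyclic loess 11 lower and 0 higher. Over all probe sets the split depended on the scaling, with 1307 higher and 801 lower as deposited, 824 and 900 after quantile normalization and 697 and 1076 after cyclic loess. Without the array whose description names cerebellum, 9 members were called, all among the same 10.

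Kcnab3, a beta subunit that joins Kv channels of the Kcna group, had the smallest p. At 4 weeks it read 1492, 1238 and 1018 in knock-in and 1976, 1907 and 2164 in wild-type forebrain, and at 11 weeks 1280 and 1398 against 2245 and 2527. All knock-in readings were under all wild-type readings. The difference over both ages was -0.76 ± 0.10, or 1.70-fold (adjusted p = 0.00067, and 0.000904 without the array of conflicting description). It was called at 4 weeks (-0.70, adjusted p = 0.0077) and at 11 weeks (-0.82, adjusted p = 0.0284). The 11-week call was lost without any 1 of its 4 arrays (adjusted p 0.0803 to 0.134). A second Kcnab3 probe set was not kept, with readings of 69.0 to 639.

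The two-pore channels had the lowest family median, -0.42, with 7 of 8 probe sets below 0 and 5 called, but 3 of the 8 (Kcnk10 and 2 of Kcnk3) were below the limit on every forebrain array. Kcnk2 read 6823, 5851 and 6018 in knock-in against 7816, 8194 and 7869 in wild-type forebrain at 4 weeks, and 5918 and 6783 against 8314 and 7538 at 11 weeks. The ranges of the genotypes did not overlap, and the difference was -0.34 ± 0.08 (adjusted p = 0.0134). At 11 weeks, leaving out replicate 1 of the knock-in (adjusted p = 0.0537) or of the wild type (0.0633) ended this call. Kcnk1 at its called probe set read 4093, 3709 and 4269 against 6514, 5251 and 4877 at 4 weeks, and 3320 and 3862 against 4290 and 4358 at 11 weeks. Knock-in arrays again lay below all wild-type arrays, and the difference was -0.36 ± 0.10 (adjusted p = 0.0251). This call was lost without knock-in forebrain 4 weeks replicate 2 (adjusted p = 0.0532), or at 11 weeks without knock-in replicate 1 (0.0892), wild-type replicate 1 (0.0733) or wild-type replicate 2 (0.0599). The second Kcnk1 probe set gave -0.26 ± 0.09 (adjusted p = 0.0599).

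Kcnk3 was dim in forebrain. At 4 weeks its brightest probe set read 236, 653 and 198 in knock-in and 772, 816 and 849 in wild-type arrays, and at 11 weeks 533 and 566 against 1029 and 884. All knock-in readings lay below the limit and below all wild-type readings, so the fall of -1.05 ± 0.22 (adjusted p = 0.0083) is given as at least 1.22-fold. A second probe set gave -1.02 ± 0.30 (adjusted p = 0.0362), with both genotypes below the limit, and lost its call without the array of conflicting description (adjusted p = 0.0619) or without any 1 of 6 other forebrain arrays (up to 0.162). The third gave -0.47 (adjusted p = 0.349). Kcnk10 read between 42.2 and 210 on knock-in and between 195 and 360 on wild-type forebrain arrays, all below the limit and with some overlap. Its fitted difference was -1.20 ± 0.24 (adjusted p = 0.0073), a size that depends on the offset, and no fold is given. Kcnk10 passed the filter only through cerebellum, so its forebrain call compares readings that were not above the limit in either genotype. Of the 10 forebrain calls, those of Kcnab3 and the brightest Kcnk3 probe set, which were above the limit in at least the wild type, held under every alternative and without any 1 array.

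Of 11 Kv probe sets, those of Kcna1 and Kcnc1 were called lower, and 4 had differences above 0. Kcna1 read 7168, 8297 and 7230 in knock-in and 8661, 10928 and 10456 in wild-type forebrain at 4 weeks, and 7169 and 6346 against 11010 and 9281 at 11 weeks. The genotypes did not overlap, and the difference was -0.49 ± 0.12, or 1.41-fold (adjusted p = 0.0196). At 11 weeks, leaving out replicate 2 of the knock-in (adjusted p = 0.0842) or replicate 1 of the wild type (0.0886) ended this call. Kcnc1 read 5491, 10889 and 8112 against 9424, 12222 and 12031 at 4 weeks, and 7633 and 5134 against 9546 and 11755 at 11 weeks. Knock-in replicate 2 lay above a wild-type array at 4 weeks, and the groups were apart at 11 weeks. The difference of -0.63 ± 0.18 (adjusted p = 0.0342) was lost without any 1 of 6 of the 10 arrays, with the highest adjusted p, 0.160, without knock-in replicate 2 of 11 weeks. The call of Kcnc1 was also lost after quantile normalization (adjusted p = 0.0558) and with no filter (0.0591). Kcna1 and Kcnc1 are abundant in fast-spiking interneurons. The interneuron sums given above did not overlap between the same arrays, but that list held no marker specific to fast-spiking cells. Pvalb was listed with the Purkinje cell genes, and its own forebrain difference is not given here. The part of interneurons in these falls was not tested. In single ages neither passed (adjusted p 0.124 and 0.183 at 4 weeks, 0.165 and 0.211 at 11 weeks).

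**Figure D2:**
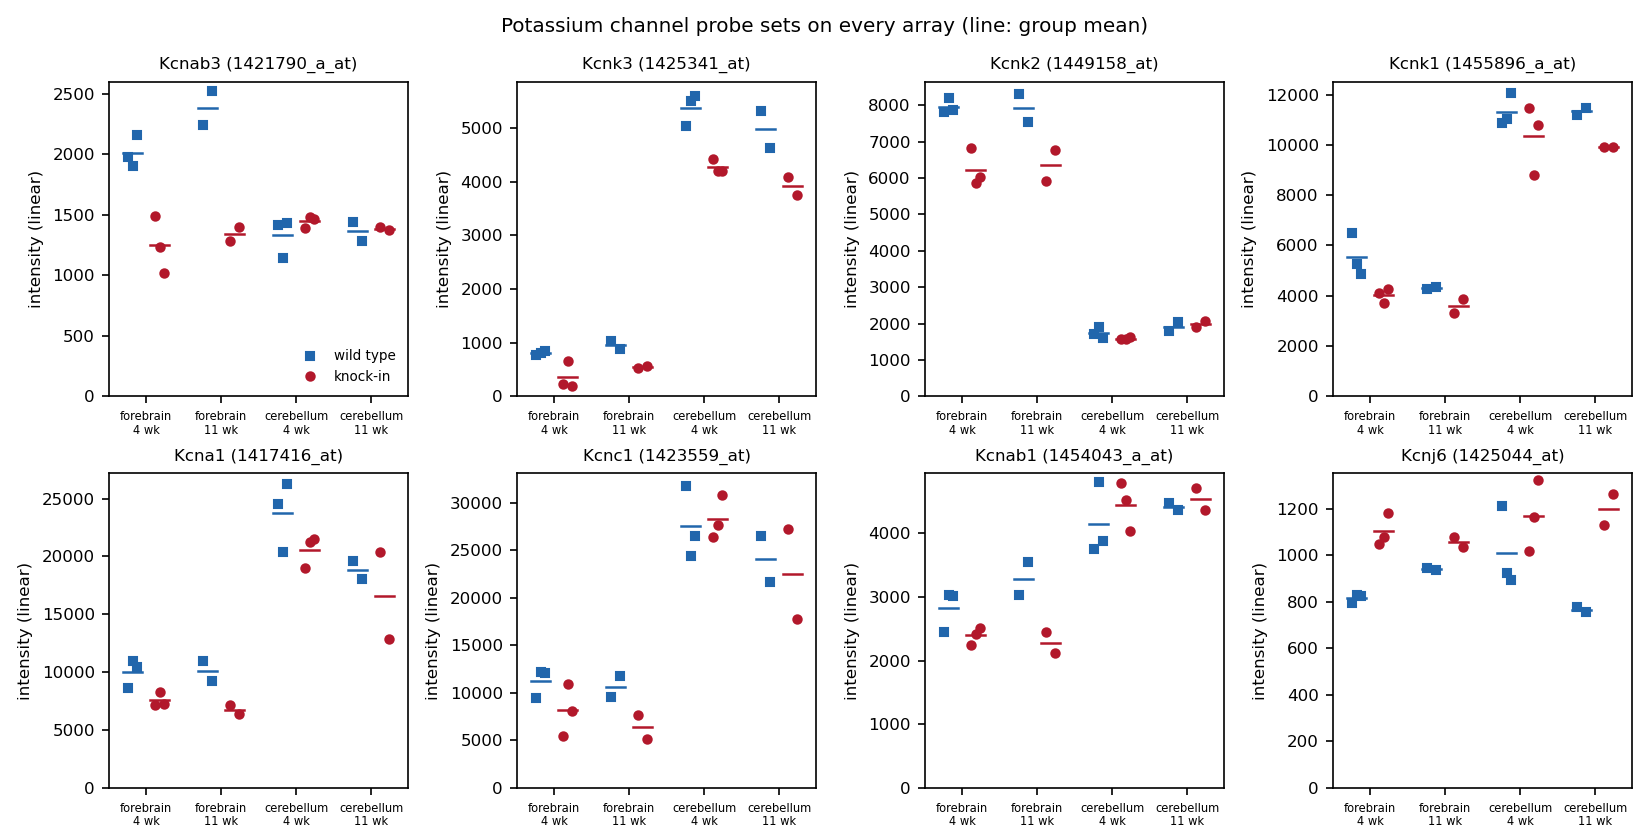
Intensity (linear scale, vertical axis from 0) of 8 potassium channel probe sets on every array, by region and age; squares are wild-type arrays, circles knock-in arrays and lines group means. In forebrain the knock-in readings of Kcnab3 (1018 to 1492) lie below the wild-type readings (1907 to 2527), and in cerebellum the 2 genotypes overlap.

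Kcnab1 depended on the probe set. The called one read 2251, 2419 and 2520 in knock-in and 2454, 3026 and 3024 in wild-type forebrain at 4 weeks, and 2444 and 2115 against 3034 and 3548 at 11 weeks. A single knock-in array lay above the lowest wild-type array at 4 weeks, and the groups were apart at 11 weeks. The fall was -0.38 ± 0.10 (adjusted p = 0.0204), and was lost without knock-in replicate 2 (0.0958) or wild-type replicate 2 (0.0727) at 11 weeks. The brighter Kcnab1 probe set gave 0.09 ± 0.10 (adjusted p = 0.589). Among the 9 genes with more than 1 kept probe set, Kcnab1 alone had fitted forebrain differences of opposite sign.

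**Figure D3:**
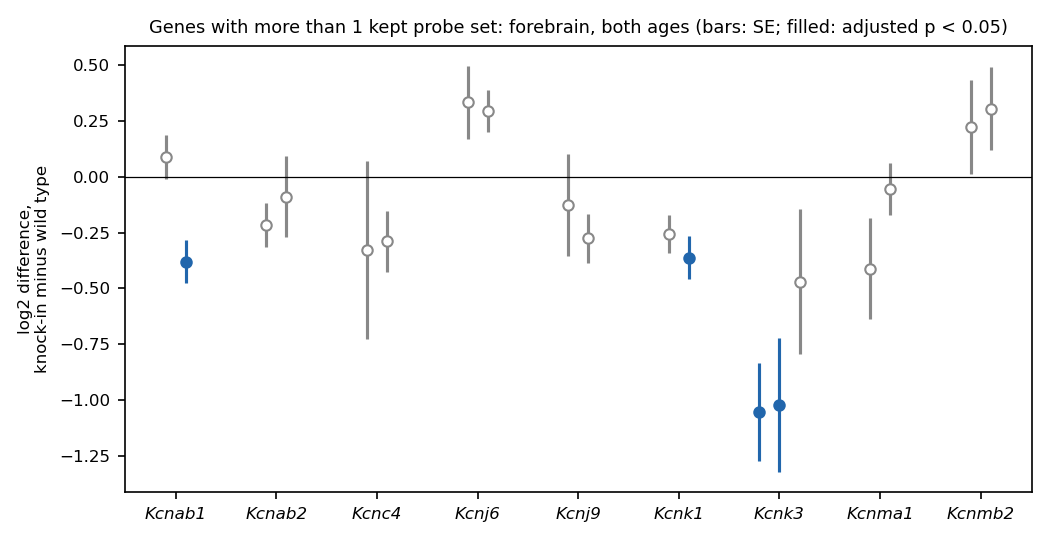
Knock-in minus wild-type difference in forebrain over both ages (log2 units, vertical axis) for each probe set of the 9 genes with more than 1 kept probe set; bars are standard errors and filled points have an adjusted p under 0.05. The Kcnab1 probe sets lie at 0.09 and -0.38, while the Kcnk3 probe sets, below the limit in all knock-in arrays, lie between -1.05 and -0.47.

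Rises in forebrain were few. Kcne1l, an auxiliary subunit of the Kcne family, read between 234 and 464 on knock-in and between 63.4 and 472 on wild-type forebrain arrays, all below the limit. Its fitted difference was 0.92 ± 0.24 (adjusted p = 0.0227) over both ages and 1.74 at 11 weeks (adjusted p = 0.042). The call over both ages was lost after quantile normalization (adjusted p = 0.0655) and cyclic loess (0.0887), and without knock-in replicate 2 (0.101) or wild-type replicate 2 (0.0939) of 11 weeks. Kcnj6 read 1050, 1080 and 1183 in knock-in and 794, 831 and 826 in wild-type forebrain at 4 weeks, and 1080 and 1034 against 946 and 938 at 11 weeks. Knock-in arrays lay above all wild-type arrays. Kcnj6 was called at 4 weeks (0.43 ± 0.12, adjusted p = 0.0429), but not without any 1 of the 6 arrays (0.0788 to 0.107), and after quantile normalization the difference was 0.28 (adjusted p = 0.162) and after cyclic loess 0.24 (0.228). Over both ages it was 0.29 ± 0.09 (adjusted p = 0.0506).

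By age, forebrain had 1 higher and 5 lower members at 4 weeks (4.95% and 2.42% of all probe sets) and 1 higher and 2 lower at 11 weeks (0.384% and 0.48%). Over all probe sets at 4 weeks, 773 higher and 378 lower became 460 and 468 after quantile normalization and 380 and 505 after cyclic loess. At 11 weeks 60 higher and 75 lower became 35 and 83, and 37 and 98. The 5 probe sets lower at 4 weeks were of Kcnab3, Kcnk3, Kcnk2 (-0.36, adjusted p = 0.0419) and Kcnk1 (-0.45 and -0.39, adjusted p = 0.0382 and 0.0416). Without the array of conflicting description, Kcnab3 and Kcnk3 kept their 4-week calls (adjusted p = 0.0234 and 0.0388). Kcnk1 (-0.50 and -0.42, adjusted p = 0.0519 and 0.0629), Kcnk2 (-0.33, 0.0932) and Kcnj6 (0.38, 0.107) then lost theirs at similar sizes, as they also did without most other single 4-week forebrain arrays (adjusted p up to 0.145). Kcnk3 lost its 4-week call without knock-in replicate 1 (adjusted p = 0.057). At 11 weeks the calls were Kcnab3, Kcnk10 (-1.78, adjusted p = 0.0403; -1.06 and 0.191 without knock-in replicate 1) and Kcne1l, and without any 1 array of that age 0 or 1 of them remained. No member was called for a difference of the genotype effect between 4 and 11 weeks in forebrain (limma; 0% of all probe sets; 2 members at an unadjusted p under 0.05), nor in cerebellum (0.0256% of all; 5 at an unadjusted p under 0.05).

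Array by array, 8 of the 49 kept members (16.3%) had knock-in forebrain readings that were all under the wild-type ones at both ages, against 6.29% of all probe sets. They were Kcna1, Kcnab3, Kcnj3, Kcnk1, Kcnk2, Kcnq5 and 2 probe sets of Kcnk3. The third Kcnk3 probe set, counted here, was below the limit on every forebrain array and passed the filter only through cerebellum. In the opposite direction stood 2 members, Kcnj6 and Kcnmb4, the neuronal beta subunit of the large-conductance calcium-activated channel, against 8.47% of all. Kcnq5 is named here after its values were seen, because its spread differed by region. It read 889, 1006 and 1086 in knock-in and 1570, 1721 and 1908 in wild-type forebrain at 4 weeks, and 823 and 796 against 1377 and 1428 at 11 weeks. The fitted difference was -0.79 ± 0.43 (adjusted p = 0.228), where the error includes the cerebellar arrays, on which Kcnq5 read 7.83 to 208. With the forebrain arrays alone the same difference had an SE of 0.09 and an adjusted p of 0.00507. That fit called 8 members, 5 of them among the 10 above, and added Kcnq5, the third Kcnk3 probe set (adjusted p = 0.0456) and Kcnj6 (0.0498); it left out Kcnab1 (0.0513), Kcnc1 (0.0786), Kcne1l (0.0598), Kcnk1 (0.0657) and the second Kcnk3 probe set (0.0602).

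**Figure D4:**
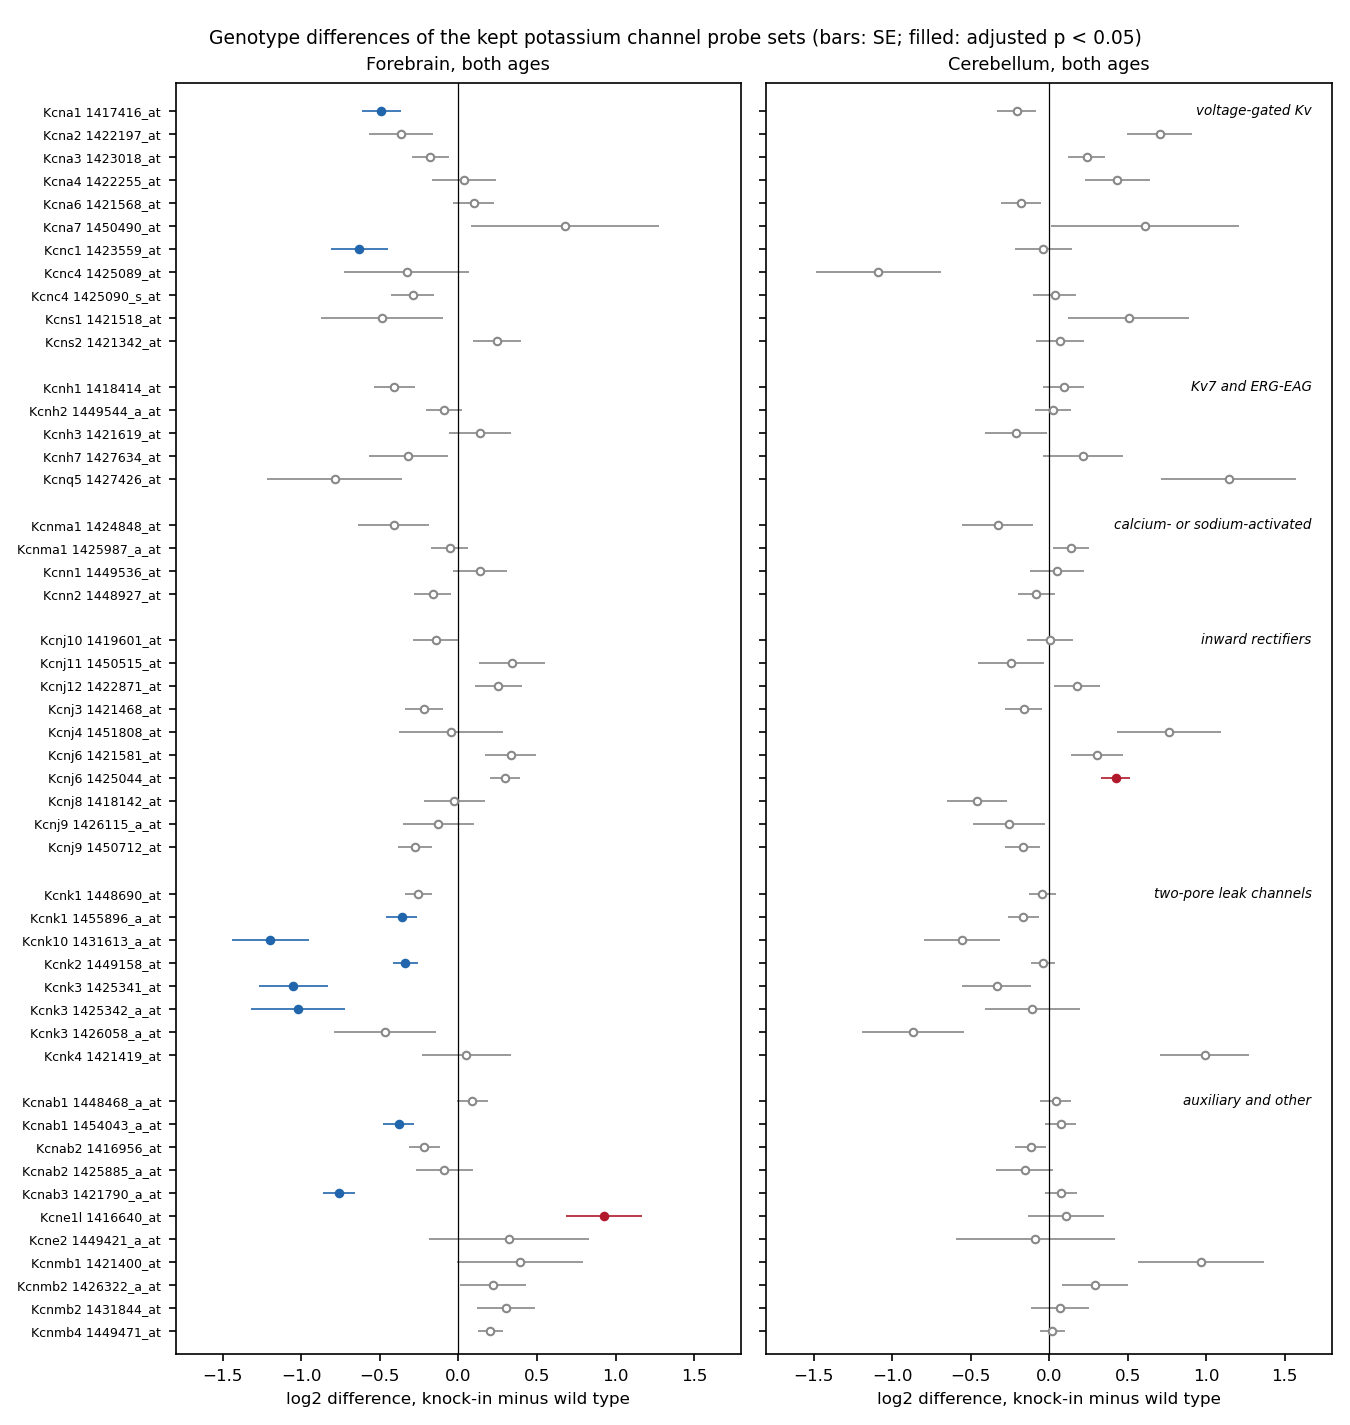
Knock-in minus wild-type difference over both ages (log2 units, horizontal axes) of the 49 kept potassium channel probe sets in forebrain (left) and cerebellum (right), grouped by family; bars are standard errors and filled points have an adjusted p under 0.05. In forebrain 7 of 8 two-pore channel probe sets lie below 0 and 5 are filled, among them Kcnk10 and a Kcnk3 probe set below the limit in both genotypes. In cerebellum the only filled point is Kcnj6, at 0.42.

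Other families in forebrain had few or no calls over both ages. The inward rectifiers had 0 of 10 probe sets called and a median of -0.04, with Kcnj3 and Kcnj9, subunits that join Kcnj6 in G-protein-gated channels, at -0.22 (adjusted p = 0.231) and -0.28 (0.101). The 5 Kcnq and Kcnh genes had a median of -0.32 and 0 calls; Kcnh1, of the EAG family, was nearest at -0.41 ± 0.13 (adjusted p = 0.0512). The large-conductance channel Kcnma1 gave -0.41 and -0.06 at its probe sets, and the calcium- or sodium-activated channels had 0 of 4 called. Kcnmb4 gave 0.20 ± 0.08 (adjusted p = 0.0865). The remaining Kv genes ranged from -0.49 for Kcns1 to 0.68 for Kcna7, both with 0 calls.

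In cerebellum, Kcnj6 was the single member called over both ages. Across all probe sets 2.25% were higher and 1.1% lower. Kcnj6 read 1018, 1163 and 1325 in knock-in and 1211, 926 and 893 in wild-type cerebellum at 4 weeks, and 1132 and 1264 against 778 and 754 at 11 weeks. The genotypes overlapped at 4 weeks, where wild-type replicate 1 read high, and were apart at 11 weeks. The rise was 0.42 ± 0.09, or 1.34-fold (adjusted p = 0.028). It was lost after quantile normalization (0.32, adjusted p = 0.0847) and cyclic loess (0.31, 0.0852), and without any 1 of 7 of the 10 arrays (adjusted p 0.0501 to 0.105). The second kept Kcnj6 probe set gave 0.30 ± 0.16 (adjusted p = 0.297), and 3 others were below the limit on all 20 arrays.

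No member was called in cerebellum at 4 weeks (limma; 0.0512% of all probe sets; 5 members at an unadjusted p under 0.05) or at 11 weeks (0.346% of all; 9 members at an unadjusted p under 0.05). The 3 members nearest on each side at 4 weeks were Kcnq5, Kcnma1 (0.48) and Kcnk4 above 0, and Kcnk10 (-0.85), Kcnk3 (-1.11) and Kcnk2 (-0.13) below, with adjusted p of 0.17 to 0.63. Kcnq5 was below the limit on all cerebellar arrays and Kcnk4 on all wild-type ones, so no size is given for them at 4 weeks. At 11 weeks they were Kcnj6 (0.63, adjusted p = 0.0753), Kcna2 (0.95, 0.18) and Kcna4 (0.81, 0.254) above 0, and Kcnj8 (-0.95, 0.157), Kcnab2 (-0.47, 0.166) and Kcnc4 (-1.56, 0.256) below. Over both ages Kcna2, the axonal partner of Kcna1, was 0.70 ± 0.20 higher (adjusted p = 0.0671). Kcna2 read 6375, 5733 and 5253 in knock-in and 4208, 3630 and 4836 in wild-type cerebellum at 4 weeks, and 7502 and 3423 against 2570 and 2677 at 11 weeks. It was the only member with all knock-in arrays above all wild-type arrays of each age (5.78% of all probe sets), but its size rested on the 11-week knock-in arrays, being 0.98 (adjusted p = 0.0336) without replicate 2 and 0.42 (0.244) without replicate 1. Kcnk4, below the limit on 8 of the 10 cerebellar arrays, had a fitted difference of 0.99 ± 0.28 (adjusted p = 0.062) over both ages. That size is not exact, and it became 1.44 without knock-in replicate 1 of 11 weeks and 0.53 without replicate 2. Kcnc4 at 1 of 2 probe sets gave -1.09 (0.129), a Kcnk3 probe set -0.87 (0.137) and Kcnj8, a subunit of channels closed by ATP, -0.46 (0.18). Without knock-in replicate 1 of 11 weeks Kcnc4 gave -0.58 and Kcnj8 -0.25, and without knock-in replicate 1 of 4 weeks the Kcnk3 probe set gave -0.53.

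Kcnk3 at its brightest probe set was the only member whose knock-in cerebellar arrays all lay below the wild-type arrays at both ages (3.87% of all probe sets). It read 4426, 4203 and 4204 in knock-in and 5029, 5508 and 5592 in wild-type mice at 4 weeks, and 4086 and 3748 against 5319 and 4631 at 11 weeks. Its fitted difference was -0.33 ± 0.22 (adjusted p = 0.396) and did not pass. The Purkinje cell sums given above did not overlap between these arrays either, and their part was not tested. Kcna1 and Kcnc1, with -0.21 ± 0.12 (adjusted p = 0.348) and -0.04 ± 0.18 (adjusted p = 0.933), and Kcnab1, with 0.04 ± 0.10 (adjusted p = 0.861) and 0.07 ± 0.10 (adjusted p = 0.715), did not pass in cerebellum. The median of the 49 members was 0.02, equal to that of all probe sets.

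The genotype effect was also averaged over all 4 region and age groups, and its difference between regions was tested. Averaged, 2 members were higher and 8 lower, against 15% and 8.65% of all probe sets. Over all probe sets, 2350 higher and 1351 lower became 1565 and 1589 after quantile normalization and 1383 and 1880 after cyclic loess, where members were 1 higher and 9 lower and 1 higher and 11 lower. Kcnj6 was higher by 0.36 ± 0.07, or 1.28-fold (adjusted p = 0.00235), at its called probe set. That probe set kept this call without any 1 array and under each alternative that tested it, with differences of 0.23 to 0.39. The stricter percentile filter did not keep it and called no member higher. The second kept Kcnj6 probe set was not called. Kcne1l was higher by 0.52 (adjusted p = 0.040), but by 0.39 (0.134) after quantile normalization and 0.31 (0.236) after cyclic loess. Kcnk10 (-0.88, adjusted p = 0.00305), Kcnab3 (-0.34, 0.0046), Kcnk3 (-0.69, 0.00628, and at another probe set -0.67, 0.0452), Kcna1 (-0.35, 0.0111), Kcnk1 (-0.26, 0.0135), Kcnk2 (-0.19, 0.0232) and Kcnj9 (-0.22, 0.0476) were lower. In forebrain, Kcnk10, Kcne1l and the Kcnk3 probe set at -0.67 were below the limit in both genotypes, and the one at -0.69 in knock-in. Their averaged sizes are therefore not exact. Without the array of conflicting description the calls of Kcne1l (adjusted p = 0.0612), the Kcnk3 probe set at -0.67 (0.052) and Kcnj9 (0.0599) were lost. Each of these 3 was also lost without 1 of many other arrays, with adjusted p up to 0.132. Kcnk2 lost its call without 1 of 4 arrays of 11 weeks, namely knock-in cerebellum replicate 1 (0.0561), wild-type cerebellum replicate 2 (0.0633), knock-in forebrain replicate 1 (0.0604) and wild-type forebrain replicate 1 (0.0625).

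For Kcnab3 the genotype effect differed between regions, by 0.84 ± 0.14 log2 units (cerebellum minus forebrain; adjusted p = 0.0213, and 0.0229 without the array of conflicting description); 0.282% of all probe sets passed this test. In cerebellum Kcnab3 read 1396, 1485 and 1464 in knock-in and 1419, 1144 and 1432 in wild-type mice at 4 weeks, and 1396 and 1378 against 1442 and 1285 at 11 weeks. The genotypes overlapped there at both ages, with a difference of 0.08 ± 0.10 (adjusted p = 0.715). The regional call was lost without 1 of 6 arrays of 11 weeks (adjusted p 0.0545 to 0.0643), namely both knock-in arrays of each region and wild-type replicate 2 of each region. It was also lost with no filter (0.0563) and with a fixed replicate block (0.0587). For the other members the difference between regions did not pass; Kcna2 was next, at 1.07 ± 0.29 (adjusted p = 0.184) with a forebrain difference of -0.36 (adjusted p = 0.245), and was called without knock-in cerebellum 11 weeks replicate 2 (0.041).

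Age moved few members. From 4 to 11 weeks, over both genotypes, Kcnh3 fell in cerebellum and no other member was called there (1.27% of all probe sets were lower and 0.474% higher). Kcnh3, an ELK-type voltage-gated channel, read 828, 673 and 652 in knock-in and 805, 931 and 645 in wild-type cerebellum at 4 weeks. At 11 weeks it read 257 and 390 in knock-in and 537 and 282 in wild-type cerebellum. All 11-week readings lay below all 4-week readings and below the limit, and the difference was -1.06 ± 0.20 (at least 1.14-fold, adjusted p = 0.0124; 0.0813 without wild-type replicate 2 of 11 weeks). With the cerebellar arrays alone the adjusted p was 0.0523. In forebrain 0 members were called for age (limma; 0.096% of all probe sets; 3 members at an unadjusted p under 0.05).

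Genes that act with these channels were examined from lists outside the Kcn members. Of 23 listed partners and scaffolds, 16 were measured. Over both ages Adam23 (-0.95), a membrane partner of the secreted protein Lgi1, and Amigo1 (-0.53; -0.37 with an adjusted p of 0.156 at its other probe set), an auxiliary protein of Kcnb channels, fell in knock-in forebrain, and Adam23 was called at 4 weeks alone (-0.86). Abcc8, the sulfonylurea receptor that joins Kcnj11 in ATP-sensitive channels, fell in knock-in cerebellum (-0.59, and -0.93 at 11 weeks alone). Kcnj11 itself gave -0.24 ± 0.21 (adjusted p = 0.538) there. Of the 7 measured pump and chloride transport genes, Slc12a2, an inward potassium and chloride transporter, was called lower in forebrain at 1 of 3 probe sets (-0.51), while the others gave 0.14 (adjusted p = 0.353) and -0.53 (0.166). Averaged over all groups, Rgs7, a regulator of G-protein signalling, was also lower (-0.35) and Cntnap2, which anchors axonal Kcna channels, higher at 1 of 2 probe sets (0.28, against -0.04 with an adjusted p of 0.836). Of the 2 measured HCN genes and 4 measured sodium channel genes, 0 were called in either region over both ages (limma); with shares of 5.13% lower and 8.36% higher over all probe sets in forebrain and 1.1% and 2.25% in cerebellum, 0 of so few is near the background. Among the Kcnd and Kcnip genes left out by the rule, probe sets of Kcnd2 and Kcnip3 were lower in both regions, 3 in cerebellum (-0.41 and -0.56 for Kcnd2, -1.03 for Kcnip3) and 4 in forebrain (-0.42 and -0.44, -0.46 and -1.06).

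Over the 8 group means, the members most like each named gene were found by Pearson's r, given as a description. The means share the arrays' scaling and the large regional difference. For Kcna1 they were Kcnc1 (r = 0.99), Kcnk10 (0.98) and Kcnk3 (0.98). For Kcnc1 they were Kcnk3 (0.99), Kcna1 (0.99) and Kcnk1 (0.98). The called Kcnab1 probe set was closest to Kcnc1 (0.96), followed by Kcnk3 probe sets (0.96 and 0.95), and the other Kcnab1 probe set to Kcnj12 (0.98), Kcne2 (0.95) and Kcnk1 (0.93). Kcnj6, whose regional difference did not pass, had lower values, with 0.60 for Kcnmb1, 0.56 for Kcna2 and 0.46 for Kcna7.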

How the data were processed

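Total RNA of mouse cerebellum and forebrain was measured on single-channel arrays, and the authors deposited 1 linear intensity per probe set and array. Every array had a 2% trimmed mean of 2500.59 to 2500.75, so the deposited intensities were already scaled; the software is not given in the sources used here. Groups came from the code in each title. Probe sets take their symbols from the platform annotation, and all 75 members matched RefSeq by Entrez number. Of 22690 probe sets, 64 were controls, 20380 had 1 symbol, 691 several and 1555 none.

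Intensities were set to log2(intensity + 16), and a probe set was kept (15627) if 2 or more arrays read over their own 40th percentile. limma 3.58.1 in R 4.3.3 fitted 8 group means to 20 arrays (lmFit, eBayes), with Benjamini-Hochberg adjustment over all 15627 and calls at an adjusted p under 0.05. The analysis was tested on simulated data. Array number limits the precision. A fold with the dimmer group below the limit uses that limit and is a lower bound. The members, gene lists and tests were chosen with earlier results of these data known. Named were Kcna1, Kcnc1, Kcnj6 and Kcnab1, called members, the 3 nearest each way where fewer than 6 were called, the 10 largest region and 8 largest age differences each way, their other probe sets, listed partners that were called, and the 3 members most like each of the first 4 genes. Alternatives were other offsets, normalizations, filters, 1 probe set per gene, eBayes settings, replicate blocks, only the arrays compared and each array left out.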

Additional observations from a re-analysis of the deposited data

Results flagged for a closer look

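The genotype effect on Kcnab3 differed between cerebellum and forebrain by 0.84 log2 units (cerebellum minus forebrain) in limma's test of the difference itself, with a Benjamini-Hochberg adjusted p of 0.0213. No other potassium channel member passed this test. The call was lost with no filter (adjusted p = 0.0563), with a fixed replicate block (0.0587) and without 1 of 6 arrays of 11 weeks (0.0545 to 0.0643).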

How the results depend on the processing

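Over 89 named results and their settings, 1679 of 1863 recomputed values kept their direction and side of the threshold, 178 kept the direction and no longer passed, 6 newly passed and 0 reversed. Named results include members not called in the main fit, for which keeping the side means staying uncalled, and regional differences, which lost no call. Every lost call was therefore of a genotype or age difference. Kcnj6 in forebrain at 4 weeks lost its call in 12 of 16 settings, and Kcnab3 there in 1 of 17. For the forebrain genotype difference over both ages, settings other than leaving out 1 array called 8 to 12 members, against 10. The range with 1 array left out is given below.

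Some counts of called members moved by more than 1.5 times. At 4 weeks in forebrain the 6 calls became 3 after quantile normalization (2 of them among the 6), 2 with no filter and 1, not among the 6, with only the arrays compared. At 11 weeks in forebrain the 3 became 0 with no filter, 1 with the replicate block and 0 with only the arrays compared. In cerebellum over both ages the 1 became 0 after quantile normalization, after cyclic loess, with the 60th percentile filter and with only the arrays compared, 3 with trend and robust eBayes and 2 with the replicate block. For the difference between regions the 1 became 0 with no filter (Kcnab3 adjusted p = 0.0563) and with the replicate block (0.0587). The 36 regional calls became 22 with the 60th percentile filter, which tests fewer members, and the 1 age call in cerebellum became 0 with that filter and with only the arrays compared. The cause of the other changes was not tested.

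Leaving out 1 array at a time gave 5 to 12 calls for genotype in forebrain over both ages, 2 to 3 at 4 weeks and 0 to 1 at 11 weeks. It gave 0 to 2 in cerebellum over both ages, 0 at 4 weeks and 0 to 1 at 11 weeks. It gave 7 to 11 over all groups, 0 to 2 for the difference between regions, 0 for the difference between ages in either region, 34 to 37 for region, and 0 to 2 and 0 to 1 for age in cerebellum and forebrain. The groups of 11 weeks hold 2 arrays, so leaving out 1 leaves a lone array that is assumed to vary like the other groups.

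Correlations of same-numbered 4-week arrays were -0.099 to 0.038 between genotypes of a region and -0.023 to 0.113 between regions of a genotype. For different numbers they were -0.058 to 0.080 and -0.078 to 0.103. At 11 weeks same-numbered arrays gave 0.019 to 0.052 and 0.073 to 0.076, and different numbers gave the same sizes below 0. Values this weak showed no clear pairing by number and cannot exclude a shared mouse or batch. With the number as a fixed replicate block 12 members were called in forebrain over both ages, all 10 among them. As a random block the consensus correlation was 0.0574 and 10 were called. Under the fixed replicate block Kcnk4 passed in cerebellum (adjusted p = 0.0387).

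Of the whole-array split in cerebellum over both ages, 352 higher and 172 lower became 194 and 166 after quantile normalization and 202 and 236 after cyclic loess. Several forebrain members (Kcnk10, Kcne1l and a Kcnk3 probe set) lie below the detection limit in both genotypes, and their fitted sizes depend on the offset.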
